A study of Mus musculus with 1012 samples.

Results

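The D-type cyclins and the inhibitors of cyclin-dependent kinases (CDKs) were followed across macrophage-like and adipose precursor cells of the mouse. The 9 genes were taken as a list of names from the count table: *Ccnd1*, *Ccnd2* and *Ccnd3* for the cyclins, *Cdkn1a*, *Cdkn1b* and *Cdkn1c* for the Cip/Kip inhibitors, and *Cdkn2a*, *Cdkn2b* and *Cdkn2c* for the Ink4 inhibitors. They are 9 of the 30452 rows of that table. The study sequenced 1012 single-cell libraries with a Smart-seq2 type protocol, 296 of them from cytoplasm drawn out of living cells (Live-seq), 162 from whole IBA cells with or without an earlier cytoplasmic sampling and the others from whole lysed cells (scRNA-seq). RAW-G9 cells are a subline of the RAW264.7 macrophage line that descends from 1 clone and carries 2 reporters, mCherry under the promoter of *Tnf* and RelA fused to a green fluorescent protein. They were given lipopolysaccharide (LPS), with cytoplasm drawn 4 to 5 h later, or served as RAW mock. The labels call RAW mock cells not treated, and the paper names PBS for them. IBA cells are an immortalized brown preadipocyte line from the interscapular fat of young male C57BL6/J mice, without treatment. Adipose stem and progenitor cells (ASPCs) are primary cells from subcutaneous fat of female C57BL/6J mice, sampled before (ASPC_Pre) and 2 days after (ASPC_Post) adipogenic induction with dexamethasone, IBMX, insulin and rosiglitazone. The ASPCs that the study sampled in sequence by Live-seq carried a lentiviral barcode in a green fluorescent reporter. The Live-seq libraries also include wild-type RAW264.7 cells with and without LPS, which entered no comparison. All groups are cultured cells. In 2 more groups, 49 and 43 IBA cells were lysed 1 h and 4 h after sampling, beside 70 unsampled IBA cells.

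D cyclins are the growth-factor-dependent partners of CDK4 and CDK6, and the active complexes phosphorylate the retinoblastoma protein and so release the cell from G1. The Ink4 proteins bind CDK4 and CDK6 themselves, whereas the Cip/Kip proteins bind cyclin-CDK complexes and block mainly CDK2. *Cdkn1a* encodes p21, a classical target of p53, *Cdkn1b* encodes p27, which is controlled mostly as a protein, and *Cdkn1c* encodes p57, an imprinted gene of differentiating tissue. *Cdkn2b* encodes p15, *Cdkn2c* encodes p18, and *Cdkn2a* encodes p16 and, from another start and reading frame, p19ARF, which protects p53 from Mdm2.

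The 9 genes lie on 4 chromosomes of the mm10 build that the submitters' processing notes name. *Cdkn2a* (chr4:89274471-89294653) and *Cdkn2b* (chr4:89306299-89311039) are neighbours on the minus strand, and *Cdkn2c* (chr4:109660876-109667189) lies farther along the same chromosome. *Cdkn1a* is at chr17:29090976-29100727 and *Ccnd3* at chr17:47505051-47599691. Because reads were counted without regard to strand, exon bases shared with another gene could not be assigned. By the annotation of this build they made up 23.4% of the exon bases of *Ccnd1* (chr7:144929931-144939925), where LTO1 runs the other way, and 30.7% of those of *Cdkn1c* (chr7:143458339-143461050). For *Ccnd2* (chr6:127125162-127152193) the share was 7.86%, and for *Cdkn1a* 7.68%. *Cdkn1b* (chr6:134920401-134925513), *Cdkn2a*, *Cdkn2b* and *Cdkn2c* share none.

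The promoters of the 3 inhibitors that were called between RAW and adipose cells are shown because the 2 neighbours *Cdkn2a* and *Cdkn2b* and the p53 target *Cdkn1a* have different sequence elements just before their starts. RefSeq (GRCm38.p6) held 300-base windows for 6 of the 9 genes. *Ccnd1*, *Ccnd2* and *Cdkn1c* were not among them. In each 120-base stretch, read 5′ to 3′ on the gene's strand and without exon bases, capitals mark a match on either strand to a pair of p53 half-site cores (2 copies of CATG with 6 bases between), a cyclic AMP response element (TGACGTCA) or a GC box (GGGCGG), and TATAAA was searched as well. The motifs do not overlap each other as marked.
Cdkn1a, upstream start (chr17:29090856-29090975, plus strand): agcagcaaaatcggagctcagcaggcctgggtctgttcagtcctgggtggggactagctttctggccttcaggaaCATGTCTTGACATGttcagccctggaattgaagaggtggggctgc
Cdkn1a, downstream start (chr17:29093649-29093768, plus strand): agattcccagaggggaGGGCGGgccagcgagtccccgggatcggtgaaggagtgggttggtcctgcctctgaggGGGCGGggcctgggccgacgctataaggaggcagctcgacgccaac
Cdkn2a, upstream start (chr4:89294654-89294773, minus strand): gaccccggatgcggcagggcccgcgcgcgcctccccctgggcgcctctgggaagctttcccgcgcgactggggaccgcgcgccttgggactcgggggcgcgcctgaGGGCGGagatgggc
Cdkn2a, downstream start (chr4:89282193-89282312, minus strand): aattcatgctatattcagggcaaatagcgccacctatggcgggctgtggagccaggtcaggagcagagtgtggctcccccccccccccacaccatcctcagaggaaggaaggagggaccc
Cdkn2b (chr4:89311040-89311159, minus strand): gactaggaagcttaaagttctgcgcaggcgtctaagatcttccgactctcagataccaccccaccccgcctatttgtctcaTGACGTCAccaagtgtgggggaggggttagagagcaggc
The half-site pair is in 0.712% of the 32851 promoter windows of the same length, the cyclic AMP response element in 1.79%, the GC box in 35.7% and TATAAA in 13.6%. Among the windows of these genes, the upstream start of *Cdkn1a* alone held the half-site pair and *Cdkn2b* alone the cyclic AMP response element.

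The unit of replication was the batch. Reads of at least 3 cells of 1 state in 1 batch were added up, so that a sum has the depth of a bulk sample, and the value given is the count scaled to a fixed total of kept reads (CPM). In scRNA-seq, the batches 8_8, 9_1 and scRNA held 16, 46 and 95 RAW mock cells, 15, 46 and 88 RAW LPS cells and 15, 45 and 93 IBA cells. ASPC_Pre had 16 and 44 cells in batches 8_8 and 9_1, and ASPC_Post 35 in batch 9_1. In Live-seq, batches 6, 7, 8_8 and 9_4 held 8, 20, 63 and 12 RAW mock and 4, 16, 9 and 10 RAW LPS cells, batches 7, 8_8 and 9_4 held 13, 14 and 17 IBA cells, and ASPC_Pre had 18 and 43 cells in batches 8_8 and 9_4 and ASPC_Post 37 in batch 9_4. In such a sum, fewer cells with a transcript and less RNA per cell cannot be told apart, and neither can a gene's level and the share of cells in a cycle phase. The libraries held 64547 to 1603790 reads in Live-seq, 41030 to 2671609 in scRNA-seq and 38451 to 1077131 after sampling. Summed over 10 genes each, mesenchymal markers stood at 0 to 5.63 CPM in the RAW sums and at 2614 to 20183 CPM in all IBA and ASPC sums. Macrophage markers stood at 2935 to 15995 CPM in RAW, and in IBA and ASPC sums at or below 86.0 CPM apart from the IBA sum of batch 9_1 in scRNA-seq, where all 10 macrophage genes had reads and together reached 606.7 CPM. LPS responses were present in the LPS sums, as *Tnf* stood at 1471 to 2502 CPM after LPS and at 79.9 to 335.5 CPM without in scRNA-seq. After induction, *Fabp4*, a fatty acid carrier of adipocytes, stood at 571.7 CPM against 15.99 CPM before in scRNA-seq, whereas *Pparg*, the master regulator of fat cells, stood at 8.42 and 12.2 CPM.

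Per kilobase of exon, *Ccnd1* was the main D cyclin of RAW cells and *Ccnd2* that of ASPCs, whereas the leading one of IBA cells differed between batches. In scRNA-seq, *Ccnd1* stood at 97.4 ± 30.1 CPM per kb (SD, n = 3 sums) in RAW mock, *Ccnd2* at 26.9 ± 0.683 and *Ccnd3* at 11.4 ± 1.02. In IBA cells the 3 levels were 31.9 ± 25.3, 22.6 ± 12.6 and 20.5 ± 3.35 CPM per kb (SD, n = 3), which overlap. *Ccnd1* held the largest share in IBA batch 8_8 (56.2%), *Ccnd3* in batch 9_1 (46.3%) and *Ccnd2* in the batch named scRNA (46.6%), so that the means come from unequal batches. In ASPC_Pre, of which there were only 2 sums, *Ccnd2* stood at 140 and 244.7 CPM per kb and *Ccnd1* at 38.5 and 214.1 CPM per kb. Counted cell by cell, *Ccnd1* was the highest D cyclin per kb in 92.99% of RAW mock cells, and *Ccnd2* in 44 of 60 ASPC_Pre cells. Among IBA cells, *Ccnd1* led in 11 of 15 cells of batch 8_8, *Ccnd3* in 30 of 45 of batch 9_1 and *Ccnd2* in 52 of 93 of the batch named scRNA. Live-seq gave the same leading gene in RAW mock (*Ccnd1* in 66 of 89 cells with a D-cyclin read) and ASPC_Pre (*Ccnd2* in 41 of 56), and among 36 IBA cells *Ccnd1* led in 14, *Ccnd2* in 9 and *Ccnd3* in 13. The length used was that of all annotated exons of a gene together, 4709 bases for *Ccnd1*, 9409 for *Ccnd2* and 8775 for *Ccnd3*. It can exceed the length of the transcripts present, and 23.4% of the *Ccnd1* exon bases could not be assigned. The levels per kb, shares and leading genes, here and below, depend on this choice. These make-ups are descriptions without a test.

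**Figure D1:**
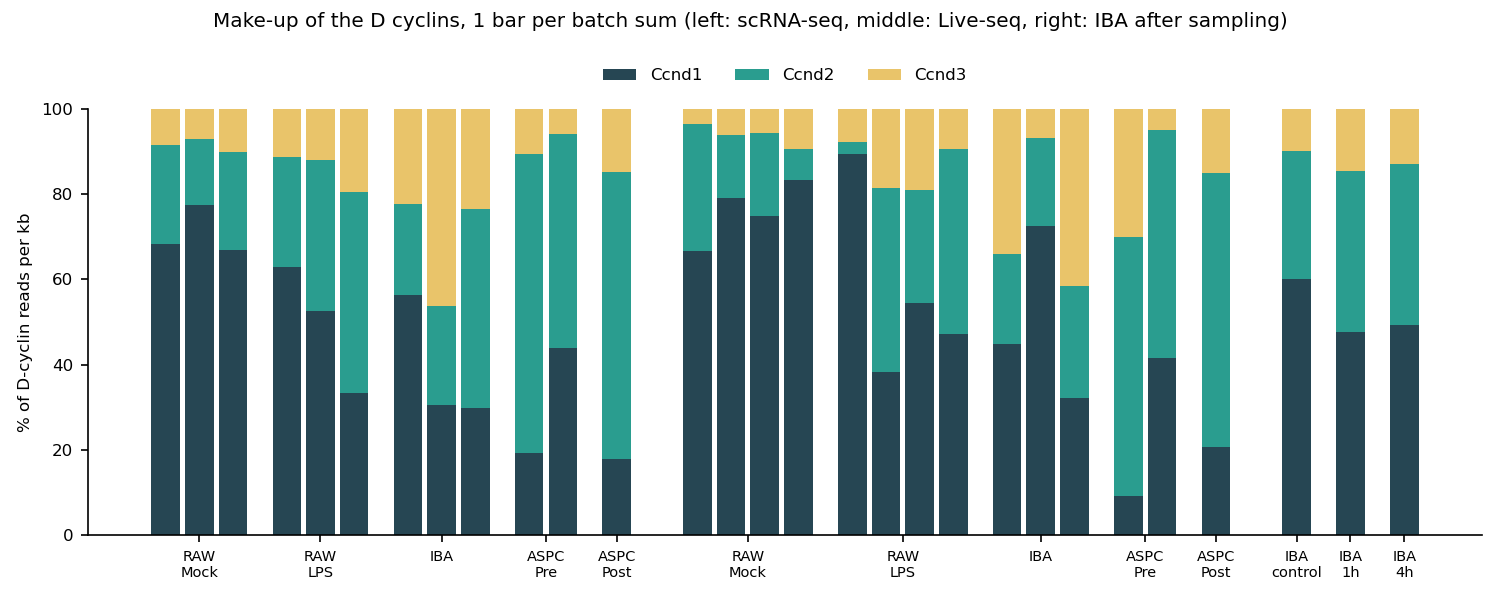
Share of each D cyclin in the D-cyclin reads per kb of exon (y axis, %), with 1 bar per batch sum grouped by state (x axis). Ccnd1 holds 66.97 to 77.5% of every RAW mock bar of scRNA-seq, and Ccnd2 holds 50.1% or more of every ASPC bar.

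*Ccnd2* was higher in ASPC_Pre than in IBA cells. Its level in scRNA-seq was 1315 CPM in batch 8_8 and 2302 CPM in batch 9_1 of ASPC_Pre, against 216.99, 92.1 and 329.04 CPM in the IBA sums of batches 8_8, 9_1 and scRNA. The groups did not overlap, and the log2 difference was 3.55 (SE 0.50, edgeR adjusted p = 0.00490). Against RAW mock, where the 3 sums stood at 245.96 to 258.7 CPM, the log2 difference was 3.33 (SE 0.48, edgeR adjusted p = 0.000730). In Live-seq, *Ccnd2* stood at 411.01 and 2832 CPM in ASPC_Pre and at 115.8 to 186.7 CPM in IBA cells, again without overlap, yet the log2 difference of 3.54 had an SE of 1.16 and did not pass (edgeR adjusted p = 1). The Live-seq sums of RAW mock, at 122.8 to 483.5 CPM, overlapped with those of ASPC_Pre, and that difference did not pass either (2.82, SE 1.22, edgeR adjusted p = 0.344).

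*Ccnd3*, the most evenly expressed of the 3 cyclins, stood at 89.9, 106.6 and 103.8 CPM in the RAW mock sums of scRNA-seq and at 187.2 and 258.7 CPM in ASPC_Pre. The log2 difference was 1.51 (SE 0.25, edgeR adjusted p = 0.00145). It was no longer called when batch 9_1 was left out (1.07, edgeR adjusted p = 0.0605). IBA cells lay between, at 155.5 to 212.4 CPM, with a log2 difference from RAW mock of 0.93 (SE 0.22, edgeR adjusted p = 0.00846) that passed the adjusted p and not the 2-fold limit.

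*Ccnd1* separated the cell types less clearly because its ASPC sums lay far apart. It stood at 181 CPM in batch 8_8 and 1008.3 CPM in batch 9_1 of scRNA-seq, and at 30.7 and 1099 CPM in batches 8_8 and 9_4 of Live-seq. The IBA sums (285.6, 60.6 and 104.98 CPM) all lay below the RAW mock sums (383.5, 622.2 and 370.2 CPM) in scRNA-seq. The log2 difference of −1.53 (SE 0.71) did not pass (edgeR adjusted p = 0.123), though it did by DESeq2 (−1.54, adjusted p = 0.0452) and without batch 8_8 (−2.41, edgeR adjusted p = 0.0249). The IBA sum of batch 9_1 had the lowest *Ccnd1* value (60.6 CPM) and also the macrophage-marker reads, while RAW mock of that batch stood at 622.2 CPM. The part of these reads in the value was not tested.

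Of the Cip/Kip inhibitors, *Cdkn1a* was called higher in IBA cells and in ASPC_Pre than in RAW mock in scRNA-seq. In scRNA-seq it stood at 129, 206.98 and 93.6 CPM in the RAW mock sums of batches 8_8, 9_1 and scRNA, at 179.9, 401.6 and 270.2 CPM in the IBA sums of the same batches, and at 456.6 and 1430.5 CPM in ASPC_Pre. IBA lay above RAW mock in each of the 3 batches, although the ranges of the groups overlapped, and ASPC_Pre lay above both without overlap. RAW cells with LPS did not keep to this order, as their sum of batch 9_1 stood at 573.1 CPM, above every IBA sum and above the ASPC_Pre sum of batch 8_8. The log2 difference was 1.06 (SE 0.33) between IBA and RAW mock and 1.68 (SE 0.38) between ASPC_Pre and IBA (edgeR adjusted p = 0.0329 and 0.0276). The first was lost without batch 9_1 (0.93, adjusted p = 0.0732), without the batch named scRNA (0.64, adjusted p = 0.319) and without batch as a term (1.10, adjusted p = 0.226). The second was lost when any single batch was left out and without batch as a term (adjusted p = 0.101).

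Between ASPC_Pre and RAW mock the *Cdkn1a* log2 difference was 2.74 (SE 0.38, edgeR adjusted p = 0.000629) in scRNA-seq. Live-seq showed 824.5 and 1405 CPM in ASPC_Pre against 188.6, 55.6, 132 and 109.2 CPM in the RAW mock sums of batches 6, 7, 8_8 and 9_4, with a log2 difference of 3.67 (SE 0.73, edgeR adjusted p = 0.0261). This gene was therefore called in both kinds of library for that pair of cell types. In the Live-seq data the call was lost without batch 7, 8_8 or 9_4.

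*Cdkn1b* stayed between 21.5 and 85.3 CPM in all scRNA-seq sums of the 5 states. None of its comparisons between cell types passed, the nearest being IBA against RAW mock in scRNA-seq (log2 difference 1.02, SE 0.43, edgeR adjusted p = 0.0952). In Live-seq, *Cdkn1b* was at 0 in 2 of 4 RAW mock sums and 3 of 4 RAW LPS sums. *Cdkn1c* had too few reads to be tested. It had 0 reads in both RAW groups of both techniques, where 3 counts would be 0.0467 CPM in RAW mock of scRNA-seq. In scRNA-seq, the IBA sums of batches 8_8, 9_1 and scRNA stood at 0, 1.27 and 2.98 CPM. The ASPC_Pre sums stood at 4.86 CPM (20 reads) in batch 8_8 and at 0.123 CPM (3 reads) in batch 9_1, so that the reads of this state came mostly from 1 batch. In Live-seq there was 1 read in IBA cells, and the 6 reads in ASPC_Pre came from 1 cell. The floor of 3 counts was taken over the group and, as reads carry no molecular identifiers, covers counting error only.

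The neighbours *Cdkn2a* and *Cdkn2b* were present in adipose cells and almost absent from RAW cells. *Cdkn2b* stood at 53.4, 266.8 and 150.7 CPM in the IBA sums of batches 8_8, 9_1 and scRNA and at 50.6 and 292.7 CPM in ASPC_Pre. The 3 RAW mock sums held 3 reads together and the RAW LPS sums none. With the reads of all batches pooled, *Cdkn2b* stood at 197.2 CPM in IBA cells and 257.7 CPM in ASPC_Pre. These values are 4124-fold and 5389-fold above the floor of 3 counts over the RAW LPS group. The folds are bounds on the RAW side only, and the sums of batch 8_8 would give lower ones. In Live-seq, where no RAW mock cell had a *Cdkn2b* read, the bounds against RAW mock, again from pooled reads, were 1931-fold and 2684-fold.

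*Cdkn2b* was called in IBA cells against RAW mock in scRNA-seq (edgeR adjusted p = 5.87e-06) and in Live-seq (edgeR adjusted p = 0.0264), and likewise in ASPC_Pre against RAW mock (5.96e-06 and 0.0202, both adjusted by edgeR). The fitted fold of such a gene follows the small count added in the fit and is not given. *Cdkn2b* was tested only because adipose cells held enough reads, so no call in the other direction was possible. The scRNA-seq calls held when any single batch was left out, and the Live-seq calls were lost without batch 7, 8_8 or 9_4. Between ASPC_Pre and IBA cells *Cdkn2b* differed by a log2 value of 0.37 (SE 0.29, edgeR adjusted p = 0.429), which did not pass.

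*Cdkn2a* stood at 19.0, 76.2 and 19.98 CPM in the IBA sums of scRNA-seq and at 0 and 23.7 CPM in ASPC_Pre. RAW mock had 1 read and RAW LPS none. The pooled IBA reads (45.7 CPM) were 956.2-fold above the floor of the RAW LPS group, again a bound on the RAW side only. Like *Cdkn2b*, *Cdkn2a* was tested only because adipose cells held enough reads, so no call in the other direction was possible. *Cdkn2a* was called in IBA cells against RAW mock in scRNA-seq (edgeR adjusted p = 0.00236). It was also called in ASPC_Pre against RAW mock (edgeR adjusted p = 0.0110), but that value came from batch 9_1 alone, since the 16 ASPC_Pre cells of batch 8_8 had no *Cdkn2a* read. Without batch 9_1 no ASPC_Pre read was left, and the fitted log2 difference of −1.78 follows the small count added in the fit. In Live-seq both ASPC_Pre sums had reads, at 13.7 and 13.96 CPM, and the IBA sums stood at 33.2, 12.03 and 59.9 CPM. Against RAW mock, where Live-seq found no *Cdkn2a* read, neither IBA cells nor ASPC_Pre passed (edgeR adjusted p = 0.166 and 0.206). Reads of the p16 and ARF transcripts were counted together.

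*Cdkn2c* was found in all 3 cell types. Its scRNA-seq sums stood at 26.7 to 39.04 CPM in RAW mock, at 45.2 to 126 CPM in IBA cells and at 47.4 and 9.82 CPM in ASPC_Pre. The IBA sums all lay above those of RAW mock, with a log2 difference of 1.47 (SE 0.59) that did not pass (edgeR adjusted p = 0.0808). It passed with the IBA and RAW mock sums fitted alone (1.33, adjusted p = 0.0426) and without batch 8_8 (1.88, adjusted p = 0.0164).

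**Figure D2:**
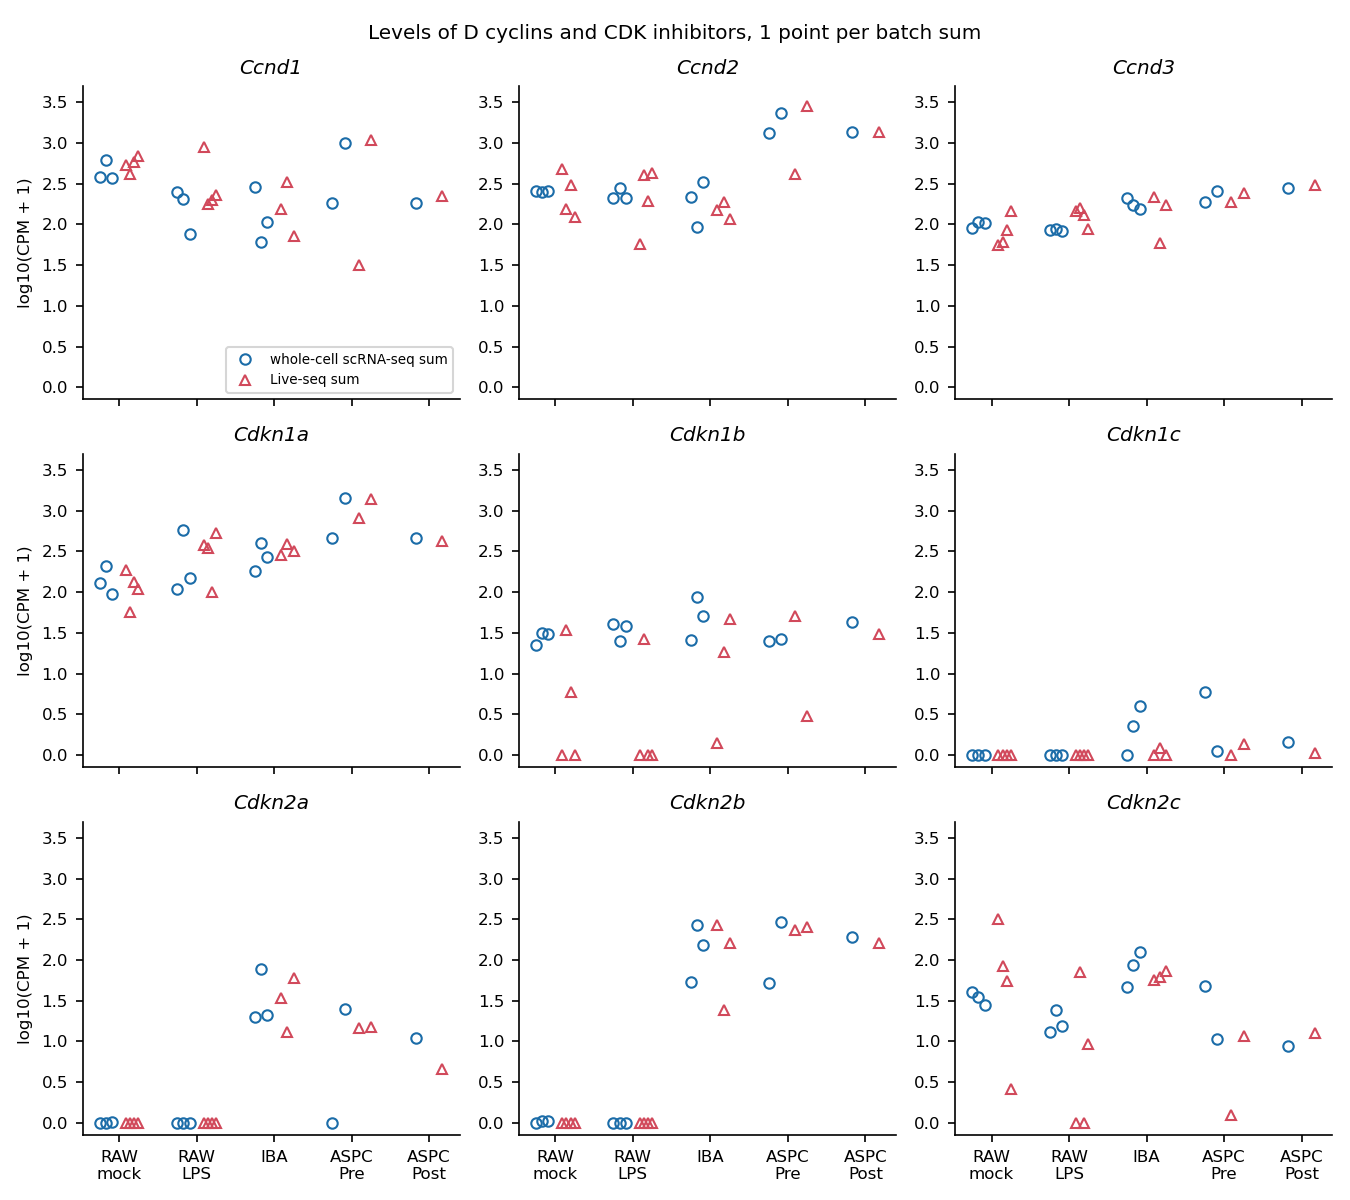
Level of each gene (y axis, log10 of CPM + 1) in every batch sum, by state (x axis), with circles for whole-cell scRNA-seq and triangles for Live-seq. Cdkn2a and Cdkn2b lie at or near 0 in all RAW sums, Ccnd2 lies higher in the ASPC sums than in all other sums of scRNA-seq, and the Live-seq sums of Cdkn1b and Cdkn2c spread widely within a state.

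Counted over the genes tested, 3 of 8 members were called between IBA cells and RAW mock in scRNA-seq, where 33.7% of all 13564 genes were called. Between ASPC_Pre and RAW mock it was 5 of 8 against 40% of all genes, and between ASPC_Pre and IBA cells 2 of 8 against 11.2%. In Live-seq the counts were 1 of 8 (2.21% of 13452 genes), 2 of 8 (2.05%) and, for ASPC_Pre against IBA, 0 of 8 (0.0223%, 3 genes) by edgeR, with 3.89% of genes and, among the members, *Ccnd2* and *Cdkn1a* at an unadjusted p under 0.05, and 1.963% of genes but no member called by DESeq2. The median log2 difference of the members was 1.04 against 0.21 over all genes for IBA against RAW mock, 2.12 against 0.28 for ASPC_Pre against RAW mock and 0.47 against 0.12 for ASPC_Pre against IBA, all in scRNA-seq. In the first 2 comparisons *Cdkn2a* and *Cdkn2b* hold the highest values, also at their bounds, so placing them there cannot move the medians. Both genes raise these medians, and medians without them are not given. The counts called against RAW mock include *Cdkn2b* in both techniques and *Cdkn2a* in scRNA-seq, and both could be called in 1 direction only. The comparisons share the RAW mock and IBA sums and are not independent of each other.

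*Ccnd1* was lower in the LPS sum than in the mock sum of every scRNA-seq batch, and *Cdkn1a* was higher in most, but neither passed the test. *Ccnd1* stood at 383.5, 622.2 and 370.2 CPM without LPS and at 251.9, 205.1 and 75.2 CPM with LPS in batches 8_8, 9_1 and scRNA. The 2 groups did not overlap, and the ratios within the batches were 0.657, 0.330 and 0.203. The log2 difference of −1.35 (SE 0.70) did not pass (edgeR adjusted p = 0.436), and over all alternatives its adjusted p ranged from 0.0625 to 0.911. 

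In Live-seq, *Ccnd1* was lower with LPS in 3 of 4 batches, and the groups overlapped. The mock sums of batches 6, 7, 8_8 and 9_4 stood at 541.6, 414.2, 586.3 and 690 CPM, and the LPS sums at 896.2, 176, 199.9 and 230.7 CPM. The exception, batch 6, held 4 LPS cells. The log2 difference was −0.90 (SE 0.89, edgeR adjusted p = 1), and −1.28 at its lowest and −0.71 at its highest when 1 batch was left out.

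*Cdkn1a* moved the other way in most batches. It stood at 109.5, 573.1 and 150.2 CPM after LPS in scRNA-seq, against 129, 206.98 and 93.6 CPM without, so that it was higher in 2 of 3 batches. In Live-seq it was higher in 3 of 4 batches, at 380.8, 346.8, 98.6 and 530 CPM with LPS against 188.6, 55.6, 132 and 109.2 CPM without. The log2 differences were 0.78 (SE 0.33) and 1.51 (SE 0.60), each with an unadjusted p under 0.05 and neither past the adjusted limit (edgeR adjusted p = 0.330 and 1). In both techniques the batch that went the other way was 8_8.

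The other cyclins stayed close to their mock levels in scRNA-seq. *Ccnd2* stood at 207.3 to 277.2 CPM with LPS and 245.96 to 258.7 CPM without, and *Ccnd3* at 81.9 to 86.6 CPM with LPS and 89.9 to 106.6 CPM without. The *Ccnd3* sums did not overlap, but its log2 difference was −0.11 (SE 0.21, edgeR adjusted p = 0.929). In Live-seq *Ccnd3* was higher with LPS in 3 of 4 batches (log2 difference 0.68, SE 0.64, edgeR adjusted p = 1).

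Among the remaining inhibitors, *Cdkn2c* was lower with LPS in all 3 scRNA-seq batches. Its sums were 39.04, 33.8 and 26.7 CPM without LPS and 12.1, 23.3 and 14.6 CPM with LPS, and did not overlap. The log2 difference of −0.83 (SE 0.58) did not pass (edgeR adjusted p = 0.595). The Live-seq sums of *Cdkn2c* ranged from 1.57 to 313.99 CPM without LPS and from 0 to 69.4 CPM with LPS, and overlapped. *Cdkn1b* stood at 40.2, 23.98 and 37.7 CPM with LPS and at 21.5, 30.4 and 29.8 CPM without (log2 difference 0.51, SE 0.43, edgeR adjusted p = 0.677). *Cdkn2a* and *Cdkn2b* were at or under the floor in both groups, so no fold is given.

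**Figure D3:**
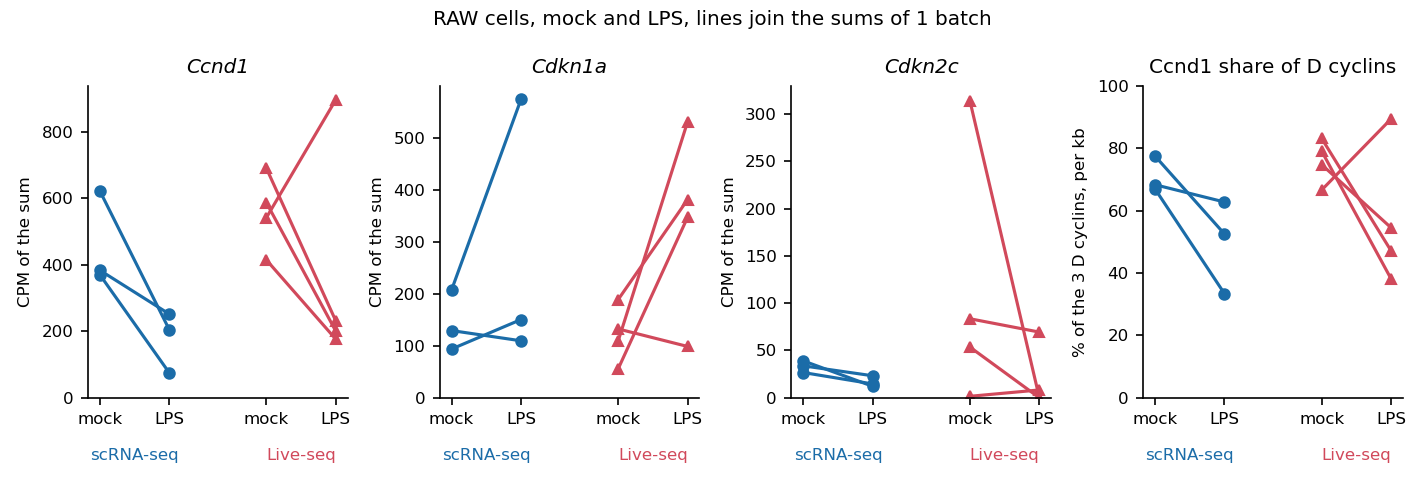
Levels of Ccnd1, Cdkn1a and Cdkn2c (y axes, CPM) and the Ccnd1 share of the 3 D cyclins per kb (y axis, %) in RAW mock and LPS sums (x axis), where each line joins the 2 sums of 1 batch. All 3 scRNA-seq lines of Ccnd1 and Cdkn2c slope down, and the 1 rising Ccnd1 line of Live-seq is batch 6 with 4 LPS cells.

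The make-up of the D cyclins differed with LPS as well. *Ccnd1* made up 68.3, 77.5 and 66.97% of D-cyclin reads per kb in the mock sums of scRNA-seq and 62.8, 52.5 and 33.4% in the LPS sums of the same batches. In batches 8_8, 9_1 and scRNA it led the D cyclins in 14 of 16, 46 of 46 and 86 of 95 mock cells and in 11 of 15, 25 of 46 and 17 of 88 LPS cells. *Ccnd2* led in 2, 19 and 53 of these LPS cells, so that it passed *Ccnd1* in the batch named scRNA alone. In Live-seq the share was 66.6 to 83.2% without LPS and 38.1 to 89.5% with LPS, the upper value again from batch 6. No test was run on this share.

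By edgeR, 0 of 8 members were called with LPS in scRNA-seq, where 1.23% of 13564 genes were called and 14.6% (*Cdkn1a* among them) had an unadjusted p under 0.05, and DESeq2 called 5.26% of genes and none of the members. In Live-seq edgeR called 0 of 8 members and 0% of 13452 genes, with 3.99% of genes (*Cdkn1a* among them) at an unadjusted p under 0.05 and 4.91% called by DESeq2, again without a member. The edgeR test missed most of 12 LPS response genes used as a check. All 12 were higher with LPS in both techniques, with median log2 differences of 4.36 in scRNA-seq and 5.38 in Live-seq. Of these, 1 was called in scRNA-seq and 0 in Live-seq, so a member without a call may still differ. The median log2 difference over the 6 members with reads above the floor was −0.05 in scRNA-seq and −0.46 in Live-seq, beside −0.01 and −0.48 over all genes. The LPS effect was also compared between the techniques by an interaction term. By edgeR it was called for 0 of 6 members and 0% of 11758 genes (4.69% of genes at an unadjusted p under 0.05, and 0.510% by DESeq2), with a difference of 0.48 (SE 0.66) for *Ccnd1* and 0.65 (SE 0.96) for *Cdkn1a*. With the RAW sums of both techniques in 1 fit, added after seeing the data, *Ccnd1* stood at −1.11 (SE 0.32) and *Cdkn1a* at 1.11 (SE 0.46), and neither passed (adjusted p = 0.479 and 0.785).

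For 4 RAW cells, the labels pair a library without LPS and a library with LPS from the same cell. *Ccnd1* was lower with LPS in 3 of the 4 cells, with medians of 885.6 CPM without and 257.8 CPM with LPS, and *Cdkn1a* was higher in 3, with medians of 0 and 280.015 CPM. For 1 of the pairs the labels call both libraries the first draw, so that their order rests on the treatment label. It is among the 3 for *Ccnd1* (523.2 and 472.3 CPM) and is the exception for *Cdkn1a* (76.7 and 69.8 CPM). By the study's procedure, the second draw came from a cell already sampled before LPS. LPS and the earlier sampling therefore cannot be told apart in these pairs. These libraries also enter the sums above.

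Genes of the cell cycle had mostly lower values with LPS, but few were called. Of 43 genes of S phase, 42 were lower with LPS in scRNA-seq, with a median log2 difference of −0.93 beside −0.01 over all genes, and 39 were lower in Live-seq (median −1.21 beside −0.48). *Ung*, which removes uracil from DNA, passed in scRNA-seq (−2.35, SE 0.41, edgeR adjusted p = 0.0365). Of 27 genes of the G1 machinery, 19 were lower (median −0.47) and *Tfdp2*, a partner of the E2F factors, passed (−1.58, SE 0.28, edgeR adjusted p = 0.0365). In Live-seq 18 of the 27 were lower, with a median of −0.56 close to the −0.48 over all genes. Of 54 genes of G2/M, 38 were lower in scRNA-seq (median −0.17) and 49 in Live-seq (median −0.85). *Ung* and *Tfdp2* were the only genes of these 3 lists that edgeR called in scRNA-seq, where 1.23% of all genes were called. Of 22 genes of the p53 pathway, 11 were higher and 11 lower, and *Fas*, a death receptor, passed (5.64, SE 0.93, edgeR adjusted p = 0.0306). With any 1 batch left out, at most 18 of all genes were called. The part of a shift in cell cycle phase in the *Ccnd1* level was not tested.

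After 2 days of induction, *Ccnd1* and *Cdkn1a* were lower and *Ccnd3* was close to its earlier level in both kinds of library. Each technique had 1 batch with both states, so the values compare 2 sums without a replicate check, and the intervals cover counting error only. In scRNA-seq (batch 9_1), *Ccnd1* stood at 1008.3 CPM in 44 cells before induction and at 179.9 CPM in 35 cells after, which is 5.60-fold lower (log2 ratio −2.49, 95% Poisson interval −2.54 to −2.43). In Live-seq (batch 9_4), it stood at 1099 CPM in 43 cells before and at 219.7 CPM in 37 cells after, which is 5.00-fold lower. The median cell went from 855.2 to 141.7 CPM in scRNA-seq and from 838.5 to 84.4 CPM in Live-seq.

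*Ccnd2* and *Ccnd3* differed less. *Ccnd2* stood at 2302 CPM before and 1368 CPM after in scRNA-seq (log2 ratio −0.75) and at 2832 and 1368 CPM in Live-seq (−1.05), so that only the second lay past 2-fold. *Ccnd3* stood at 258.7 and 281.1 CPM in scRNA-seq (log2 ratio 0.12) and at 240.8 and 301.5 CPM in Live-seq (0.32). With *Ccnd1* low, *Ccnd2* was the leading D cyclin per kb in 34 of 35 ASPC_Post cells of scRNA-seq and in 30 of 37 of Live-seq, and *Ccnd1* led in 0 and 3 of them.

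*Cdkn1a* stood at 1430.5 CPM before induction and 461.6 CPM after in scRNA-seq, 3.10-fold lower, with the median cell at 1242 and 351.5 CPM. In Live-seq it stood at 1405 and 420.6 CPM, 3.34-fold lower, with the median cell at 1212 and 311.6 CPM. Most genes of its pathway differed less. Of 22 genes of the p53 list, 21 reached 10 CPM in 1 of the states of scRNA-seq, and 3 of them were past 2-fold up (*Gadd45a* 2.28, *Trp53inp1* 1.44 and *Rrm2b* 1.06 on the log2 scale) and 1 down (*Plk2*, −2.80). In Live-seq 2 of 21 were past 2-fold up (*Gadd45a* 1.45 and *Sesn1* 1.35) and 3 down, among them *Plk2* (−1.71) and *Trp53* (−1.05), the gene of p53 itself.

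*Cdkn1b* stood higher after induction in both kinds of library. In scRNA-seq it went from 25.98 to 41.7 CPM, a log2 ratio of 0.68 that is under 2-fold, and from 32 of 44 to 28 of 35 cells with a read. In Live-seq it went from 2.01 to 29.5 CPM (log2 ratio 3.87), with reads in 6 of 43 and 15 of 37 cells, and the highest cell after induction was at 485.96 CPM. The median Live-seq cell had no read in either state, so the sum rests on 15 of the 37 cells. The other ASPC_Pre sum of Live-seq, from batch 8_8, stood at 50.4 CPM, above the value after induction.

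The Ink4 genes at the *Cdkn2a* and *Cdkn2b* locus were both lower after induction, by unequal amounts. *Cdkn2a* went from 23.7 to 9.93 CPM in scRNA-seq (log2 ratio −1.26, interval −1.50 to −1.01) and from 13.96 to 3.57 CPM in Live-seq (−1.97, interval −2.39 to −1.55). *Cdkn2b* went from 292.7 to 189.8 CPM (−0.62) and from 255.99 to 159.6 CPM (−0.68), under 2-fold in both. *Cdkn2c* stood at 9.82 and 7.72 CPM in scRNA-seq and at 10.7 and 11.5 CPM in Live-seq, and its median cell had no read. *Cdkn1c* stood at 0.123 CPM (3 reads) before and 0.465 CPM (8 reads) after in scRNA-seq and at 0.377 CPM (6 reads) and 0.0626 CPM (1 read) in Live-seq.

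**Figure D4:**
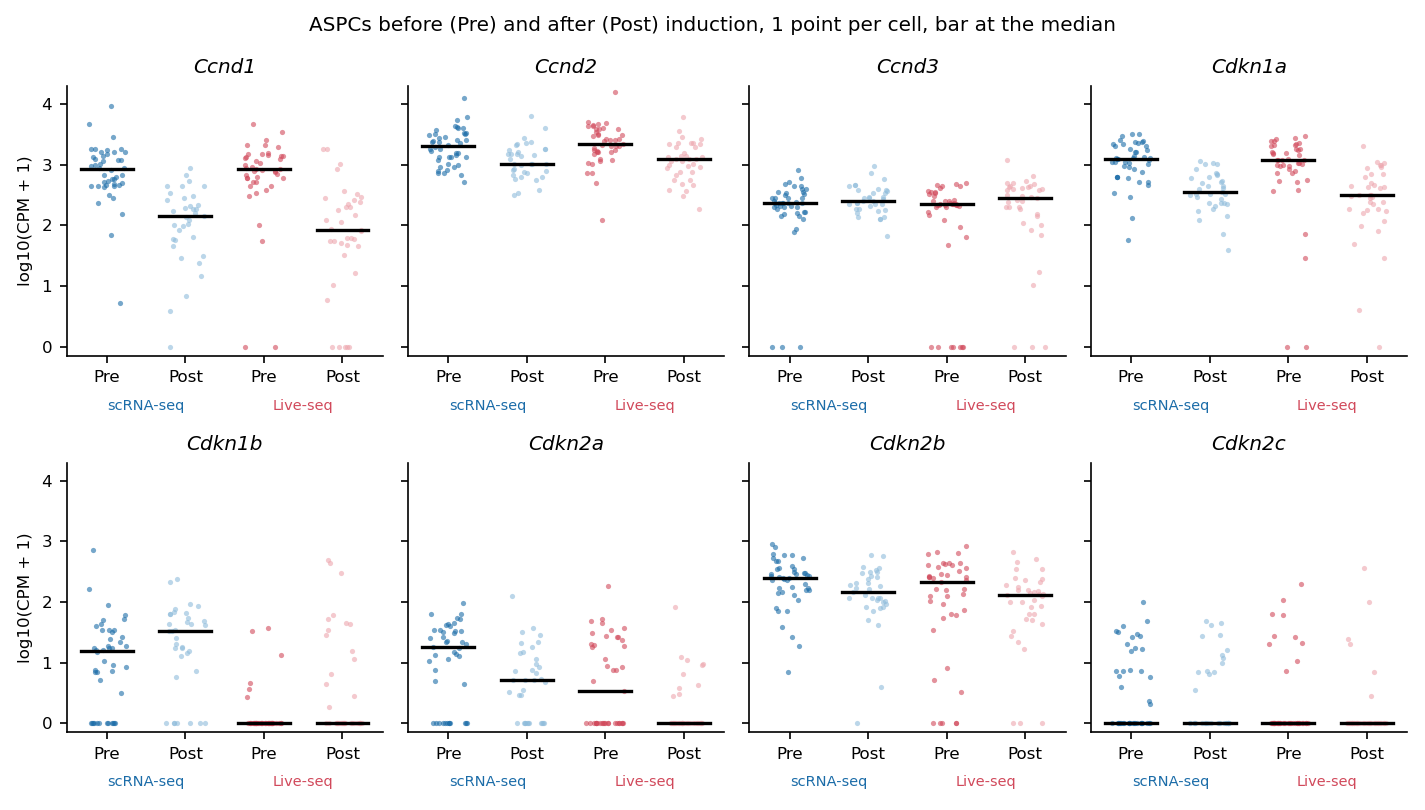
Level of 8 genes (y axis, log10 of CPM + 1) in single ASPC libraries before (Pre) and after (Post) induction, by technique (x axis), with 1 point per library and a bar at the median. The medians of Ccnd1 and Cdkn1a are lower after induction in both techniques, and the median of Ccnd3 is about the same.

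In all, 3 of the 7 members that reached 10 CPM in scRNA-seq lay past 2-fold, where 25.2% of 9363 genes did, and 5 of 8 in Live-seq, where 31.4% of 8786 genes did. Under alternative processing, *Cdkn2a* in scRNA-seq came to −0.70 and *Ccnd2* in Live-seq to −0.91 at their weakest, both under 2-fold. The members' median log2 ratio was −0.75 against −0.06 over all genes in scRNA-seq and −0.87 against −0.17 in Live-seq. Mesenchymal markers summed to 13854 CPM before and 17541 CPM after in scRNA-seq, and macrophage markers to 54.996 and 37.4 CPM. *Foxo1*, a transcription factor that can raise *Cdkn1b*, was among the 5 of 12 genes of the FOXO and TGF-beta list past 2-fold up in scRNA-seq (log2 ratio 2.35), beside *Tgfbr1* (1.65), *Smad4* (1.58) and *Sp1* (1.27). Of the S phase genes, 3 of 31 were past 2-fold up and 3 down in scRNA-seq, and 2 of 24 up and 8 down in Live-seq. Of the G2/M genes it was 3 up and 7 down of 41 in scRNA-seq, and 3 up and 17 down of 42 in Live-seq, where their median was −0.72.

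In the Live-seq data, the labels pair 9 ASPC libraries from before induction with 9 from after as draws from the same cell. The cell barcodes by which the study checked its own pairs were not used here, so the number of pairs rests on the labels alone. *Ccnd1* was lower in the second draw in 8 of the 9 cells, with medians of 779.05 and 120.4 CPM. *Cdkn1a* was lower in 7 (medians 554.8 and 221.1 CPM), *Ccnd2* in 7 (medians 2586 and 1254 CPM) and *Ccnd3* in 5, with 1 cell at 0 in both draws. *Cdkn1b* was higher in 4 and lower in 1, and had no read in either draw in the other 4 cells. The second draw came from a cell already sampled before induction, so induction and the earlier sampling cannot be told apart in these pairs. These cells are not a second experiment, since their libraries are part of the Live-seq values above.

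The 2 batches of ASPC_Pre differed as much as the states for several genes. In scRNA-seq, *Ccnd1* was at 181 CPM in batch 8_8, next to 179.9 CPM after induction in batch 9_1, and *Cdkn1a* was at 456.6 CPM, next to 461.6 CPM. *Cdkn2c* was at 47.4 CPM in batch 8_8 and at 9.82 CPM in batch 9_1. The comparison of states was therefore kept within a batch.

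The IBA cells lysed after a part of their cytoplasm had been drawn were compared with IBA cells that had not been sampled, to see how the drawing bears on the cell. *Ccnd1* was lower at both times and *Cdkn1a* higher. *Ccnd1* stood at 203.96 CPM in the 70 control cells, at 92.2 CPM in the 49 cells of 1 h and at 109.6 CPM in the 43 cells of 4 h. The log2 ratios to the control were −1.15 at 1 h (95% Poisson interval −1.22 to −1.07) and −0.90 at 4 h (−0.97 to −0.82), and the median cell was at 166.8, 52.2 and 76.9 CPM. All 3 groups came from 1 batch and both times share the control cells, so there is no replicate check and the 2 ratios are not independent.

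*Cdkn1a* stood at 321.2 CPM in control cells, 419.4 CPM at 1 h and 537.5 CPM at 4 h. The log2 ratios of 0.38 and 0.74 lay under 2-fold. The median cell showed a wider difference, at 104.7 CPM in control cells, 210.96 CPM at 1 h and 424.8 CPM at 4 h, while the highest cell was in the control group at 5676 CPM. Reads were found in 67 of 70, 46 of 49 and 42 of 43 cells.

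The other members that reached 10 CPM stayed under 2-fold at both times. *Ccnd2* stood at 202.9, 146.5 and 167.5 CPM in control, 1 h and 4 h cells and *Ccnd3* at 62.6, 52.4 and 53.9 CPM. *Cdkn1b* stood at 26.3, 23.1 and 14.8 CPM, and *Cdkn2b* at 29.7, 22.9 and 27.7 CPM. *Cdkn2c* was level, at 28.9, 29.2 and 29.4 CPM, and *Cdkn2a* stood at 10.2, 6.73 and 12.7 CPM. *Cdkn1c*, which did not reach 10 CPM, stood at 1.02, 0.231 and 0.629 CPM, with reads in 3, 2 and 2 cells. Of the 8 members that reached 10 CPM, 1 lay past 2-fold at 1 h, where 6.62% of 8805 genes did, and 0 at 4 h, where 8.37% of 8814 genes did. *Ccnd1* at 4 h sat at the limit, with a log2 ratio of −1.005 for the mean of the cells' own CPM and −1.008 after each cell was thinned to 50000 counts.

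*Ccnd1* led the D cyclins per kb in 50 of 70 control cells, 19 of 48 cells with a D-cyclin read at 1 h and 21 of 43 at 4 h. *Ccnd2* led in 15, 26 and 16 cells. The *Ccnd1* share of the sums was 60.1, 47.6 and 49.3%.

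**Figure D5:**
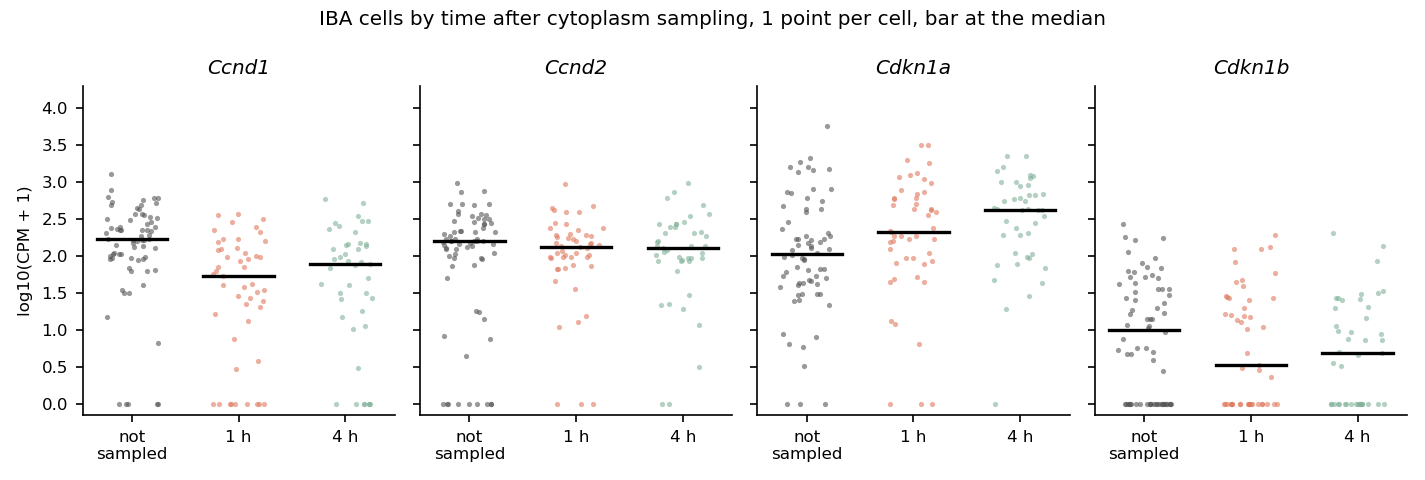
Level of 4 genes (y axis, log10 of CPM + 1) in single IBA cells that were not sampled or were lysed 1 h or 4 h after sampling (x axis), with 1 point per cell and a bar at the median. The median of Ccnd1 is lower at 1 h and 4 h than without sampling and the median of Cdkn1a is higher.

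Some genes of the p53 list were past 2-fold up after sampling. Of 21 that reached 10 CPM, 5 were past 2-fold up at 1 h, where 2.29% of all genes were, and 4 at 4 h, where 2.63% were, and none was past 2-fold down at either time. *Gadd45a*, a stress gene of growth arrest, had log2 ratios of 2.04 at 1 h and 1.32 at 4 h, *Trp53inp1* 1.81 and 1.46 and *Eda2r* 1.73 and 1.68. *Plk2* was past 2-fold at 1 h (1.24) and *Tnfrsf10b* at 4 h (1.06). The median of the list was 0.29 at 1 h and 0.35 at 4 h, beside −0.09 and −0.05 over all genes. G2/M genes were lower in 46 of 54 at 1 h and in 41 of 54 at 4 h, whereas S phase genes were higher in 34 of 42 and 23 of 42. *Myc* was past 2-fold down at 4 h (−1.37) in the G1 list. Markers of cell type differed as well. *Fabp4* had log2 ratios of 1.71 at 1 h and 1.90 at 4 h, and *Acsl1*, an enzyme of fatty acid metabolism, 1.42 and 1.11, while the 10 adipogenic markers together stood at 160.6, 145.5 and 175.8 CPM in control, 1 h and 4 h cells. *Dcn*, a matrix gene of fibroblasts, stood at 0.492, 22.8 and 0 CPM, and the 10 mesenchymal markers together at 2614, 2851 and 2879 CPM. Their part in the differences, and the share of cells per cycle phase, were not tested.

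Among the p53 genes, 9 of 22 were called higher and 1 lower in IBA cells than in RAW mock in scRNA-seq, where 33.7% of all genes were called in either direction, with a median log2 difference of 1.02 beside 0.21 over all genes. Between ASPC_Pre and IBA cells, 5 of 22 were called higher, among them the p53 targets *Ccng1* (2.80, SE 0.49), *Mdm2* (2.26, SE 0.47), *Zmat3* (2.24, SE 0.43) and *Aen* (1.92, SE 0.38), with edgeR adjusted p-values of 0.0109, 0.0196, 0.0151 and 0.0178. *Cdkn1a* was called in the same direction in these comparisons. Between ASPC_Pre and IBA cells, 21 of 43 S phase genes and 6 of 54 G2/M genes were called lower, beside 11.2% of all genes in either direction. The S phase genes with the largest values were *Ung* (−4.16, SE 0.55), *Dscc1* (−3.25, SE 0.80), *Hells* (−3.08, SE 0.55) and *Cdca7* (−2.95, SE 0.41), at edgeR adjusted p-values of 0.00423, 0.0342, 0.0123 and 0.00462. Without batch 9_1, 43 genes in all were called in this comparison, against 1514 with it. In the G1 list, *E2f4*, a repressive E2F factor, was the 1 gene called lower of 27 (−2.11, SE 0.35, edgeR adjusted p = 0.00888). *Myc* was called higher in IBA cells and in ASPC_Pre than in RAW mock (5.76 and 4.44, SE 0.87 and 0.89, edgeR adjusted p = 0.00103 and 0.00409). *Klf4* and *Smad3* of the FOXO and TGF-beta list were called higher in ASPC_Pre than in IBA cells (4.26 and 2.14, SE 1.08 and 0.60, edgeR adjusted p = 0.0473 and 0.0495).

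Over the 12 scRNA-seq sums, the genes with the most similar log2(CPM + 1) profile were ranked among 13564 genes by Pearson's r, as a description. The 12 sums share batches and 5 states, so that a gene restricted to 1 cell type gives a high value by itself. *Cdkn2b* was closest to *Laptm4b* (r = 0.997), *Epdr1* and *Slc2a10*, and *Cdkn2a* to *Sfrp4* (0.983), *Zfp939* and *Map2k6*. *Ccnd2* was closest to the chemokine *Cxcl12* (0.954), *Col24a1* and *Lmod1*, and *Cdkn1a* to *Iigp1* (0.920). *Cdkn2c* was closest to *Slbp* (0.921), the histone mRNA binding protein of S phase, and to the kinetochore gene *Cenpn* (0.920). *Ccnd1* and *Cdkn1b* had no gene as close, with the best at 0.865 (*M1ap*) and 0.847 (*Fam120aos*).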

How the data were processed

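The deposited count table held raw counts of reads per gene, made by the authors with bcl2fastq 2.19.1, STAR 2.6.1c and HTSeq on mm10 per the submitters' processing notes, unstranded. Strand-blind union counting drops reads over exons of 2 genes. Following the study's methods, 20 genes found in negative controls were removed, as were 90 genes of ribosomal proteins. Counts were summed per batch and state (at least 3 cells). To be tested, a gene needed 2 counts or more in 15% of the cells of 1 scRNA-seq state. It also had to pass filterByExpr (minimum count 2, minimum proportion 0.05) on the sums of a fit, so the number tested differs between fits. These genes were tested by edgeR 4.0.16 (glmQLFit, glmQLFTest, TMM, state plus batch, all states of a technique in 1 fit, Benjamini-Hochberg over all genes tested) in R 4.3.3. A call is an adjusted p under 0.05 with an absolute log2 difference above 1. DESeq2 1.42.0 was an alternative. The batch term pairs the groups: deviations of same-batch sums correlated at 0.287 to 0.522 in scRNA-seq and 0.0263 to 0.233 in Live-seq. Comparisons within 1 batch have no test. There, past 2-fold means an absolute log2 ratio above 1 with 10 CPM in 1 state. The intervals of these ratios are a normal approximation to Poisson counts (counting error only). The scripts were tested on simulated data. Batches are experiments by label, and p-values measure the spread between them only. The 9 genes and all gene lists were chosen with earlier results of these data known. Genes named from lists are at most the 4 called (or past 2-fold) of largest change, and similar genes the 3 of highest r. The genes most similar to *Ccnd3* are not reported here.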

Additional observations from a re-analysis of the deposited data

Results flagged for a closer look

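In groups of 4 sums, 4 of the 12 tested held a sum far from the other 3. The rule flags about 1 in 20 groups of normally distributed values by chance. That rate does not hold where most sums lie at or near 0, as in the *Cdkn1b* and *Cdkn2c* groups below. *Ccnd1* stood at 896.2 CPM in the Live-seq LPS sum of batch 6 (4 cells), against 176 to 230.7 CPM in the other LPS sums. *Cdkn1b* stood at 25.8 CPM with LPS and at 32.9 CPM without in batch 7, against 0 to 4.98 CPM in the other Live-seq RAW sums. *Cdkn2c* stood at 69.4 CPM with LPS in batch 7, against 0 to 8.28 CPM in the other LPS sums. The causes were not tested.

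Wild-type RAW264.7 cells, from 1 batch of Live-seq with 11 LPS libraries and 1 library without LPS, entered none of the comparisons. *Ccnd1* stood at 410.2 CPM over the LPS libraries, with reads in 8 of 11, and at 319.96 CPM in the library without LPS. *Ccnd3* stood at 35.2 CPM with LPS, with reads in 5 of 11 libraries, and at 0 in the library without. *Cdkn1a* stood at 523.2 CPM and 504.005 CPM. A single untreated library gives no spread, so the pair was not compared.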

How the results depend on the processing

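Of the counts of members called, 83.8% stayed within 1.5 times the reported count. Of the values of single members, 85.4% were counted as unchanged. For the tested comparisons, unchanged means the same direction and the same side of the threshold. For comparisons within 1 batch, it means a value inside the counting interval of the reported ratio, whatever its direction or side. *Ccnd1* at 4 h thus counted as changed at −0.81 with TMM size factors, beside −0.90 reported. For IBA against RAW mock in scRNA-seq, 5 members were called with those 2 states fitted alone, and 2 to 5 with 1 batch left out. For ASPC_Pre against IBA it was 1 without the replicate block and 1 to 3 with 1 batch left out, and for ASPC_Pre against RAW mock 3 to 5. In Live-seq, IBA against RAW mock gave 2 by DESeq2, 2 without the replicate block and 0 with 2 states alone (0 to 1 with 1 batch left out), and ASPC_Pre against RAW mock gave 0 with 2 states alone (0 to 2). At 4 h after sampling, 1 member lay past 2-fold by the mean of the cells' CPM and 1 after thinning.

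Reversed differences were all from members whose main value had not passed, except *Cdkn2a* for ASPC_Pre against RAW mock in scRNA-seq (−1.78 to 10.91 with 1 batch left out). The lower value has no ASPC_Pre read behind it and follows the small count added in the fit. With both techniques in 1 LPS fit, *Ccnd3* stood at 0.34 and *Cdkn1b* at −0.32. *Ccnd2* with LPS in Live-seq stood at 0.056 with the size factors of DESeq2, 0.056 by DESeq2, 0.023 by the edgeR 4 fit, 0.069 without the replicate block and 0.075 with 2 states alone. With 2 states alone, ASPC_Pre against RAW mock stood at −0.51 for *Cdkn2c* in scRNA-seq and −1.55 for *Ccnd1* in Live-seq. Without the replicate block, *Cdkn2c* stood at −0.85 for IBA against RAW mock and *Cdkn1b* at 0.52 for ASPC_Pre against IBA, both in Live-seq.

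With 1 batch left out in scRNA-seq, *Ccnd2* ranged from −0.16 to 0.17 with LPS and from −0.75 to 0.023 for IBA against RAW mock, and *Ccnd1* from −0.27 to 3.57 for ASPC_Pre against IBA. For ASPC_Pre against RAW mock, *Ccnd1* ranged from −1.51 to 1.16 and *Cdkn2c* from −1.36 to 0.85. In Live-seq, *Ccnd2* with LPS ranged from −0.80 to 0.89, *Cdkn2c* for IBA against RAW mock from −0.61 to 1.39 and *Ccnd1* for ASPC_Pre against RAW mock from −3.69 to 1.72. For ASPC_Pre against IBA, the ranges were −3.00 to 3.67 for *Ccnd1*, −3.11 to 2.72 for *Cdkn1b* and −1.59 to 0.10 for *Cdkn2a*. For the LPS effect between techniques they were −0.72 to 1.04 for *Ccnd2* and −6.02 to 0.31 for *Cdkn2c*.

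Counts over all genes moved more, given here as a multiple of the reported count. With LPS in scRNA-seq it was 4.27 by DESeq2, 2.46 by the edgeR 4 fit, 1.51 without a filter, 0.21 without the replicate block, 3.05 with 2 states alone, 0.048 with both techniques and 0 to 0.108 with 1 batch left out. For ASPC_Pre against IBA it was 1.73 by the edgeR 4 fit, 0.627 without the block, 0.476 with 2 states, 0.0284 without batch 9_1 and 0.291 without the batch named scRNA, and for the comparisons with RAW mock at least 0.589. In Live-seq, IBA against RAW mock gave 5.37 by DESeq2, 2.43 by the edgeR 4 fit, 2.18 without the block, 0.549 with 2 states and as little as 0.0404 without batch 8_8, and ASPC_Pre against RAW mock 5.41, 2.54, 2.08, 0 and 0.00362. For ASPC_Pre against IBA the 3 calls became 88 times as many by DESeq2, 8 by the edgeR 4 fit, 15 without a filter, 13 without the block and 16 with 2 states. Thinning gave 1.77 times as many genes past 2-fold at 1 h and 1.52 at 4 h. The causes were not tested. Live-seq LPS sums of 4 to 16 cells limit what low genes such as *Cdkn1b* and *Cdkn2c* can show, and single-batch comparisons have no measure of replicate spread.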
